A study of Homo sapiens with 8 samples.

Results

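The tRNA features analysed here were those of the small RNA tables that name a tRNA gene copy and carry neither alanine, isoleucine, lysine, glycine, glutamate, aspartate, histidine nor valine as their amino acid. They were selected by name and not by level. This left 157 of the 1226 features counted in the series, against 117 tRNA features of the 8 amino acids left out and 945 miRNA features. The 157 features carried 32 anticodon labels and 15 amino acid labels and lay on 21 chromosomes.

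The RNA came from H1299, an established line of non-small cell lung carcinoma that was taken from a lymph node and lacks p53. One line, EV, carried an empty vector and was supplied by another laboratory. The other, R273H, stably expressed the p53 mutant R273H from a pCMV vector and was grown from G418-resistant colonies, so line and origin cannot be told apart. Both lines were sequenced untreated and after 24 h of etoposide, which traps topoisomerase on broken DNA, giving 4 groups of 2 libraries. The labels disagree on the dose of etoposide, which is 10 µM in the treatment text but 10 mM in the growth text. Cells were used at passages 15 to 20. The study calls the libraries of a group biological replicates. Neither its methods nor the labels say whether they came from separate cultures, so the p-values measure only the spread between these libraries. The smallest p that exact permutation of 2 and 2 libraries allows is 0.333, so all p-values below come from models fitted across all features.

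A tRNA carries 1 amino acid to the ribosome and pairs with a codon through its anticodon. The human genome holds many tRNA gene copies, transcribed by RNA polymerase III, and copies with the same anticodon differ little in sequence. Cells also cut tRNAs and their precursors into fragments, some of them by angiogenin under stress. Reads of 17 to 35 bases, as kept here, are too short for a whole tRNA, so the values describe tRNA pieces and not the level of the intact, charged molecule. Since a short piece may fit several copies, the assignment of reads to single copies is uncertain. For this reason each comparison was made for single features, for sums over the copies of an anticodon, and for sums over an amino acid.

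The features took 15351 of the reads, and a few of them took most. One methionine copy, chr6.trna61-MetCAT, held 51.6% of these reads, the first 10 features held 79.5% and the first 20 held 87.1%. The median feature had 10 reads over all 8 libraries, 45 had 3 or fewer, 34 were seen in all 8 libraries and 25 in a single one. Chromosome 6, which carries the large human tRNA gene clusters, held 50 of the features and 79.2% of the reads. Only 45, 48 and 43 features reached a mean normalized count of 3 in the tables of R273H against EV, of etoposide in EV and of etoposide in R273H, and 49 reached a mean of 3 reads over the 8 libraries. The remaining features are accounted for here by their reads alone.

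Libraries held 234545 to 579367 counted reads. The share of these reads on the 157 features was 0.743% and 0.397% in untreated EV, 0.75% and 0.505% in EV with etoposide, 0.199% and 0.301% in untreated R273H, and 0.393% and 0.540% in R273H with etoposide. The Wilson 95% interval for counting error was widest in EV etoposide replicate 1, from 0.715% to 0.785%. Both untreated R273H libraries lay below both untreated EV libraries, while the etoposide groups overlapped. Among tRNA reads alone the share was 10.7% and 10.6% in untreated EV and 11.5% and 11.3% in untreated R273H, and after etoposide it was 8.71% and 5.76% in EV and 9.06% and 11.9% in R273H. The 117 other tRNA features took 6.17% and 3.36% of counted reads in untreated EV and 1.53% and 2.37% in untreated R273H, and after etoposide 7.86% and 8.27% in EV and 3.95% and 3.99% in R273H. In these bulk libraries fewer cells with a given tRNA piece and less of it per cell cannot be told apart.

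Reads were also scaled by the TMM method, which sets the libraries to a common level over most features, and are given per 1000000 reads. On that scale the summed level of the 157 features was 8654 and 4667 in untreated EV and 2975 and 3415 in untreated R273H, a log2 ratio of the group means of -1.06. After etoposide it was 5176 and 5923 in EV and 3468 and 3285 in R273H, a log2 ratio of -0.72. Without chr6.trna61-MetCAT the log2 ratios were -0.39 and -0.42, with 2931 and 2672 in untreated EV against 1837 and 2453 in untreated R273H. Much of the difference in the sum therefore lay in this 1 feature, but the remaining sum was still lower in both untreated R273H libraries than in both untreated EV libraries. Ribosomal RNA pieces were 0.391% and 0.223% of reads in untreated EV and 0.0889% and 0.185% in untreated R273H, and their part in these differences was not tested.

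By amino acid, the largest sum was methionine with 8063 reads from 8 features, followed by serine with 1781 from 15 and leucine with 1724 from 23. Threonine had 905 reads, tryptophan 833, glutamine 686 and proline 442. Arginine had 267 reads from 17 features and tyrosine 259 from 10, and asparagine, cysteine, selenocysteine and phenylalanine had 128, 94, 85 and 68. Selenocysteine is inserted at a recoded stop codon and has its own tRNA. Suppressor labels had 6 reads and features with no anticodon label had 10, so these were not tested.

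For 6 of the 13 amino acid sums every R273H library lay below every EV library on the TMM scale, against 16.6% of all sums and miRNAs tested together, and for 0 of 13 every R273H library lay above, against 13.9%. Tyrosine had 149, 111, 112 and 170 TMM-scaled reads in the EV libraries and 45.5, 39.0, 36.5 and 27.6 in the R273H libraries, each time with the untreated pair first. Arginine had 122, 140, 121 and 77.4 in EV and 48.3, 57.3, 55.7 and 66.6 in R273H. The arginine groups came close to each other after etoposide, while those of tyrosine stayed well apart. Methionine had 5627, 2172, 2651 and 3930 in EV and 1034, 989, 2014 and 1178 in R273H. Its spread within untreated EV was wider than the gap between EV replicate 2 and the highest R273H library. With the TMM factors of the anticodon sums, the same reads stood at 2004 in untreated EV replicate 2 and 2125 in R273H etoposide replicate 1. The lines then overlapped for methionine.

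In untreated cells, 4 of the 13 amino acid sums were lower in R273H with an adjusted p under 0.05 in limma, where 21.2% of all sums and miRNAs passed and 11.5% passed as lower. Methionine had a log2 fold change of -1.75 ± 0.40 (SE, adjusted p = 0.0049), tyrosine of -1.51 ± 0.44 (adjusted p = 0.0237), leucine of -1.15 ± 0.37 (adjusted p = 0.0336) and arginine of -1.22 ± 0.42 (adjusted p = 0.0486), all by limma. Of the 9 that did not pass, serine had -0.71, cysteine -0.98, tryptophan -0.79, asparagine -0.74 and phenylalanine -0.33, and proline, threonine, glutamine and selenocysteine had 0.50, 0.49, 0.47 and 0.36. The median of the 13 was -0.74, that of the 8 other amino acids -1.47 and that of everything tested 0.03. With EV replicate 2 left out 2 of these sums were called, and with any of the other 3 libraries left out none was. Such fits have 1 library in 1 line, which is assumed to vary like the rest. All 4 log2 fold changes stayed below 0 in them, as they had to, since the untreated groups of these 4 sums did not overlap. They ran from -2.48 to -1.02 for methionine (-1.02 without EV replicate 1), -1.76 to -1.25 for tyrosine, -1.47 to -0.83 for leucine and -1.30 to -1.15 for arginine. When the libraries were scaled to equal tRNA totals, no sum was called lower and 1 was called higher, against 1.21% and 28.8% of everything tested, and 10 of the 13 log2 fold changes lay above 0 and that of leucine became 0.054.

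After etoposide, 4 of 13 sums were again lower in R273H in edgeR, beside 23.3% called and 15.2% called lower among everything tested. Tyrosine had a log2 fold change of -2.13 (adjusted p = 0.000294), asparagine of -1.53 (adjusted p = 0.0335), methionine of -1.04 (adjusted p = 0.0400) and tryptophan of -1.07 (adjusted p = 0.0447), all by edgeR. Tyrosine and methionine were thus called in both conditions, which is 50.0% of each list. Methionine, asparagine and tryptophan have 1 anticodon each, so their sums hold the same reads as MetCAT, AsnGTT and TrpCCA. Fitted and adjusted among the anticodon sums, these reads gave log2 fold changes of -0.88, -1.37 and -0.90 after etoposide and were not called (edgeR adjusted p = 0.102, 0.0579 and 0.140). The etoposide calls of these 3 amino acids therefore depend on the set of sums they were fitted with. The untreated and the etoposide comparison of the lines share no libraries. The edgeR fit, however, takes its filter, its TMM scaling and 1 estimate of spread from all 8, so the 2 comparisons are not fully separate. With equal tRNA totals none of the 4 was called, and the log2 fold changes of methionine and tryptophan became 0.26 and 0.40.

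At the level of anticodons, 27 sums were tested in untreated cells and 4 of them (14.8%) were lower in R273H. Among all sums and miRNAs 21.8% were called and 12.4% were called lower, so the share of anticodons called lower was close to that of all sums. The tRNA-Arg of anticodon ArgTCG, which reads the CGA codon, had normalized counts of 14.5 and 14.3 in EV and of 0 and 0.89 in R273H. These stood for 21 and 9 reads in EV and 0 and 1 read in R273H, so ArgTCG passed the filter through EV. The ratio of the reads was 30.4 with a 95% counting interval of 5.05 to 1240, and the log2 fold change, understated by the added count of 1, was -3.49 ± 0.67 (SE, limma adjusted p = 0.000599).

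The MetCAT sum, which joins the initiator and the elongator tRNA of methionine because both carry this anticodon, had normalized counts of 1982 and 719 in EV and 373 and 338 in R273H. Its log2 fold change was -1.75 ± 0.38 (SE, limma adjusted p = 0.00191), although the EV libraries themselves differed by more than the gap between EV replicate 2 and R273H. LeuAAG had 215 and 128 in EV and 54.4 and 53.3 in R273H, a log2 fold change of -1.60 ± 0.40 (SE, limma adjusted p = 0.0050). TyrGTA had 52.6 and 36.7 in EV and 16.4 and 13.3 in R273H, a log2 fold change of -1.51 ± 0.46 (SE, limma adjusted p = 0.0206). In each of these 3 the lowest EV library was more than the highest R273H library. The opposite order was seen for ThrAGT, with 27.0 and 43.0 in EV and 57.5 and 102 in R273H, but its log2 fold change of 1.15 ± 0.44 did not pass (limma adjusted p = 0.0619). Without R273H replicate 1 or without R273H replicate 2 no anticodon was called, and 2 were called without EV replicate 1.

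After etoposide, 2 of 28 anticodon sums (7.14%) were called, both lower in R273H, where 20.2% of everything tested was called and 11.4% was called lower. ArgTCG showed 17 and 8 reads for EV against 2 and 0 for R273H, a 22.1-fold difference with a 95% counting interval of 5.52 to 193 (edgeR adjusted p = 0.00132). TyrGTA showed 36 and 55 reads for EV against 21 and 17 for R273H, with a log2 fold change of -1.97 (edgeR adjusted p = 0.00186). The tRNA-Tyr genes carry introns that are spliced out of the precursor. ArgTCG and TyrGTA were therefore called in both conditions, 50.0% of the untreated list and 100% of the etoposide list. AsnGTT had a log2 fold change of -1.37 (edgeR adjusted p = 0.0579), MetCAT of -0.88 (edgeR adjusted p = 0.102) and LeuAAG of -0.43, none of which passed.

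**Figure D1:**
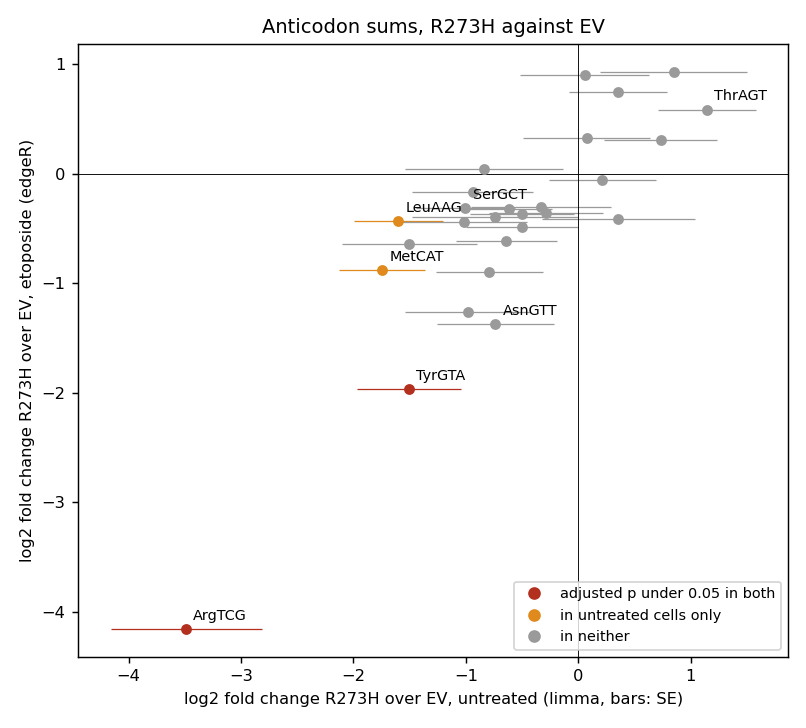
Log2 fold change of R273H over EV for 27 anticodon sums, untreated on the horizontal axis (limma, bars are standard errors) and after etoposide on the vertical axis (edgeR). ArgTCG and TyrGTA, in red, were called in both conditions, MetCAT and LeuAAG, in orange, in untreated cells only, and 24 of the 27 points had the same sign in both.

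Across the 27 anticodon sums tested in both conditions, 18 were lower and 6 higher in R273H both times. As a description, Pearson's r between the log2 fold changes was 0.841 and Spearman's rho was 0.725 over these 27 anticodons, which share libraries and scaling within each condition. On the TMM scale every R273H library lay below every EV library for ArgTCG, TyrGTA, AsnGTT and CysGCA, 4 of 28 anticodons against 14.2% of everything tested. Every R273H library lay above every EV library for ThrAGT alone, 1 of 28 against 15.8%.

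The other abundant anticodons overlapped between the lines or were not called. SerAGA, the second most abundant with 1148 reads, had 434, 657, 332 and 321 TMM-scaled reads in EV and 284, 445, 189 and 333 in R273H. TrpCCA had 337, 347, 259 and 356 in EV and 96.7, 414, 99.1 and 230 in R273H. For TrpCCA the untreated R273H libraries lay on both sides of the untreated EV libraries. SerGCT, GlnTTG, ProAGG, GlnCTG, SerCGA and ThrCGT made up the rest of the 12 most abundant anticodons, together with MetCAT, LeuAAG, ThrAGT and TyrGTA described above, and none of these 6 was called in either condition.

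Anticodons were also grouped by the first anticodon base, which pairs with the third codon base and is often modified. All 5 anticodons with G in this place (AsnGTT, CysGCA, PheGAA, SerGCT and TyrGTA) had a log2 fold change below 0 both in untreated cells (median -0.98, 1 called) and after etoposide (median -1.26, 1 called). Of those with C, 8 of 9 lay below 0 in untreated cells with a median of -0.84 and 1 called. Of those with T, 4 of 9 lay below 0 with a median of 0.06 and 1 called, and of the 4 with A, which is read as inosine, 2 lay below 0 with a median of -0.13 and 1 called. After etoposide, 7 of 10 with C, 6 of 9 with T and 2 of 4 with A lay below 0. Their medians were -0.47, -0.36 and 0.13, with 0, 1 and 0 called. The median over all 354 sums and miRNAs tested was -0.01 untreated. Calls fell on 21.8% of everything tested untreated and 20.2% after etoposide, so 0 or 1 call in a small group is no more than a description. The 18 anticodon sums of the 8 other amino acids had medians of -0.97 untreated and -1.34 after etoposide. A median below 0 was thus not particular to the anticodons with G. AsnGTT and TyrGTA, whose G is replaced by queuosine in the mature tRNA, had a median of -1.12 untreated and of -1.67 after etoposide. The 10 anticodons of leucine, serine and selenocysteine, whose tRNAs have a long variable arm, had a median of -0.69 untreated with 8 below 0 and 1 called, and of -0.41 after etoposide with 9 below 0 and none called. These directions hold relative to the scaling used, since with equal tRNA totals the anticodons with G had a median of 0.17 untreated and -0.02 after etoposide, those with C of 0.15 untreated, those with A of 1.05 untreated, those with a long variable arm of 0.37 and 0.67, and AsnGTT with TyrGTA of 0.01 and -0.51. Over all the anticodons tested here, 22 of 27 untreated and 24 of 28 after etoposide then lay above 0.

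Among single features, 10 of 45 (22.2%) were called between the untreated lines by limma, against 19.9% of all 417 features tested. Of these 9 were lower in R273H, where 12.2% of all features were called lower, and 1 was higher, where 7.67% were. After etoposide 9 of 49 (18.4%) were called by edgeR, all lower, against 20.5% of all features called and 14.1% called lower. The share called was thus near that of all features in both conditions. The median log2 fold change of the features tested was -0.36 untreated, against -0.05 for all features and -0.63 for the other tRNA features. After etoposide the 3 medians were -0.39, -0.05 and -0.50. The features with no read in R273H lie below the medians of -0.36 and -0.39 at their bounds too.

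The most abundant feature, chr6.trna61-MetCAT, had 2846 and 442 reads in untreated EV and 350 and 355 in untreated R273H, and 837 and 1256 in EV and 1138 and 695 in R273H after etoposide. Its log2 fold change was -1.80 ± 0.40 untreated (SE, limma adjusted p = 0.00282) and -1.01 after etoposide, which did not pass (edgeR adjusted p = 0.0605). It made up 99.0% of the MetCAT reads in EV and 96.6% in R273H, so that the MetCAT sum is almost wholly this feature. The 7 other MetCAT copies together had 55 reads in EV and 89 in R273H. On the TMM scale their level in R273H was 1.51 times that in EV untreated and 0.974 times after etoposide.

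The second feature, chr6.trna78-LeuAAG, had 276 and 71 reads in untreated EV and 49 and 58 in untreated R273H. It was lower in untreated R273H, with a log2 fold change of -1.51 ± 0.41 (SE, limma adjusted p = 0.0114). After etoposide the reads were 146 and 102 for EV and 150 and 185 for R273H, and the difference was not called. The single feature called higher was chr6.trna34-ThrAGT, with 20 and 13 reads in untreated EV against 39 and 69 in untreated R273H and a log2 fold change of 1.49 ± 0.46 (SE, limma adjusted p = 0.0254). After etoposide the reads were 31 and 20 for EV and 61 and 91 for R273H, again with both R273H libraries above both EV libraries, but a log2 fold change of 0.75 that did not pass (edgeR adjusted p = 0.242).

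The other features among the 10 most abundant were not called in any comparison. They were chr6.trna145-SerAGA, chr17.trna12-TrpCCA, chr11.trna9-ProAGG, chr6.trna50-SerAGA, chr6.trna62-SerGCT, chr6.trna130-GlnTTG and chr14.trna2-LeuTAG, with 781, 770, 328, 310, 283, 242 and 186 reads in all. Their log2 fold changes between the untreated lines ran from -0.98 for chr6.trna50-SerAGA to 0.43 for chr6.trna130-GlnTTG.

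The same 7 features were lower in R273H in both conditions, 70.0% of the 10 called in untreated cells and 77.8% of the 9 called after etoposide. They are copies of low to middling abundance for 7 anticodons. In untreated cells all 7 had a mean normalized count under 3 in R273H, and after etoposide 6 of them had a mean under 3 reads over the R273H libraries. They passed the filter through EV, where they were high, and such features had to differ to be tested, so their number and p-values are given as a description and not as support. Of the 45 features tested in both conditions, 22 were lower and 12 higher both times.

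**Figure D2:**
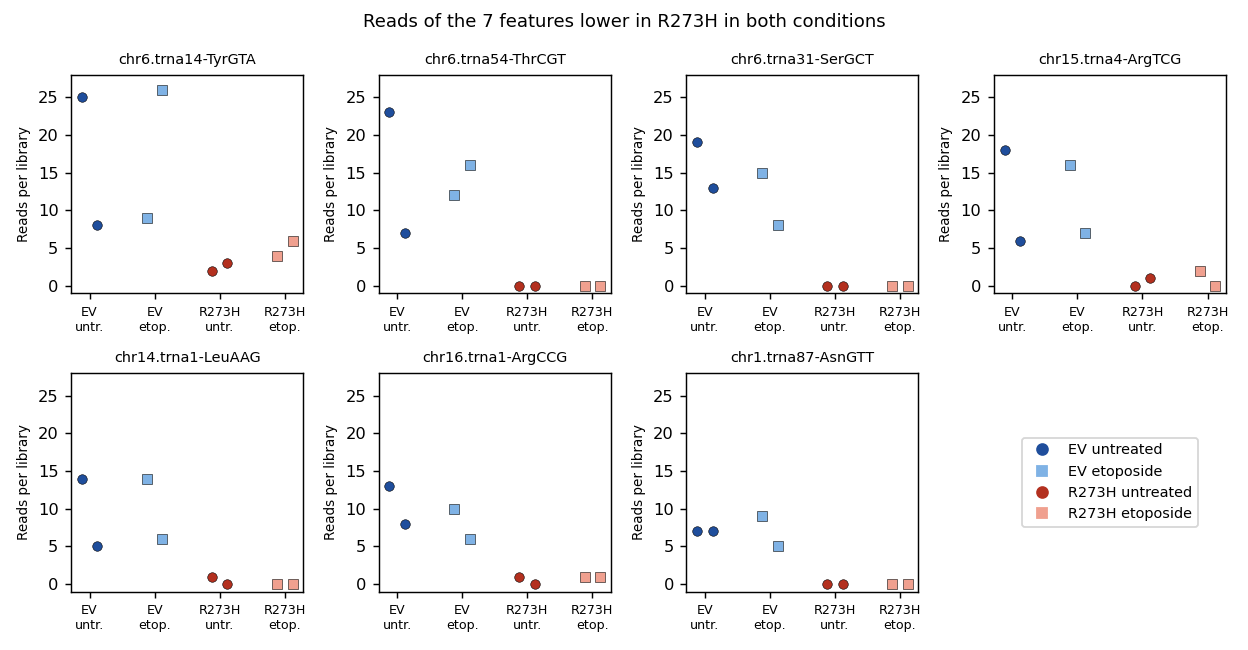
Reads in each of the 8 libraries for the 7 features lower in R273H in both conditions. The EV libraries held 5 to 26 reads of each feature, and the R273H libraries held 0 to 6.

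For 3 of the 7, no R273H library held a read. The copy chr6.trna31-SerGCT had 19 and 13 reads in untreated EV, 15 and 8 in EV with etoposide and 0 in all 4 R273H libraries. Set against a limit of 3 reads over a group, it was at least 10.8-fold lower in R273H untreated (limma adjusted p = 0.000384) and at least 13.6-fold lower after etoposide (edgeR adjusted p = 7.66e-05). The copy chr6.trna54-ThrCGT had 23 and 7 reads in untreated EV, 12 and 16 with etoposide and 0 in all 4 R273H libraries, at least 10.1-fold lower untreated (limma adjusted p = 0.00121) and at least 16.5-fold lower after etoposide (edgeR adjusted p = 1.91e-05). The copy chr1.trna87-AsnGTT had 7 and 7 reads in untreated EV and 9 and 5 with etoposide, at least 4.73-fold lower untreated (limma adjusted p = 0.0122) and at least 8.26-fold lower after etoposide (edgeR adjusted p = 0.00277). In each of the 3 every EV library held reads. These limits cover counting error only.

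The other 4 left a few reads in R273H. The copy chr15.trna4-ArgTCG had 18 and 6 reads in untreated EV against 0 and 1 in R273H, a 24.3-fold difference with a 95% counting interval of 3.97 to 1000 (limma adjusted p = 0.00544), and 16 and 7 against 2 and 0 after etoposide, 20.4-fold with an interval of 5.03 to 178 (edgeR adjusted p = 0.00148). For chr16.trna1-ArgCCG the reads were 13 and 8 against 1 and 0 untreated (limma adjusted p = 0.00658) and 10 and 6 against 1 and 1 after etoposide (edgeR adjusted p = 0.00733), with ratios of 21.3 (interval 3.42 to 880) and 14.2 (interval 3.33 to 127). ArgCCG reads the CGG codon. For chr14.trna1-LeuAAG they were 14 and 5 against 1 and 0 untreated, a ratio of 19.3 with an interval of 3.06 to 800 (limma adjusted p = 0.0129), and 14 and 6 against 0 and 0 after etoposide, where it was at least 11.8-fold lower (edgeR adjusted p = 0.000362). The copy chr6.trna14-TyrGTA had 25 and 8 reads against 2 and 3 untreated, 6.69-fold with an interval of 2.59 to 21.9 (limma adjusted p = 0.0112), and 9 and 26 against 4 and 6 after etoposide, 6.2-fold with an interval of 3.0 to 14.0 (edgeR adjusted p = 0.00402). Its groups did not overlap in either condition.

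Another 2 features passed after etoposide alone. The copy chr5.trna13-ThrTGT showed 6 and 11 reads for EV against 0 and 2 for R273H, a ratio of 15.0 with an interval of 3.57 to 134 (edgeR adjusted p = 0.00897), and in untreated cells 9 and 4 against 0 and 4 (limma adjusted p = 0.132). This copy passed the filter after etoposide only through EV, so its ratio and p-value are a description and not support. The copy chr6.trna137-SerCGA showed 11 and 16 reads for EV against 2 and 9 for R273H, with a log2 fold change of -2.08 (edgeR adjusted p = 0.0239), and in untreated cells 25 and 8 against 5 and 5 (limma adjusted p = 0.0732). The difference between the conditions was not called for either of them in the test of responses.

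With EV replicate 2 left out, 3 of the untreated features were called, and with EV replicate 1, R273H replicate 1 or R273H replicate 2 left out, none was. All 10 kept the sign of their log2 fold change in each of these 4 fits, which have 1 library in 1 line. They had to, since the untreated groups of each of the 10 did not overlap, so the kept sign is not support. After etoposide, 4 were called without R273H etoposide replicate 2, 5 without R273H etoposide replicate 1, 6 without EV etoposide replicate 2 and 9 to 11 without any other library. The calls of chr6.trna54-ThrCGT, chr6.trna31-SerGCT and chr14.trna1-LeuAAG after etoposide were kept in all 14 of the other settings in which each was tested. Each of these features passed the filter only through EV, so this is a description and not support. Under equal tRNA totals the untreated calls were 6 lower and 10 higher, in place of 9 and 1, where 3.36% of all features were called lower and 30.2% higher. The etoposide calls were then 5 lower and 3 higher, in place of 9 and 0, where 2.86% of all features were called lower and 23.8% higher. The other scaling moved the median log2 fold change of all features from -0.05 to 1.07 untreated and to 1.23 after etoposide.

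On the TMM scale, every R273H library lay below every EV library for 11 of 49 features, against 16.3% of all features, and above for 3, against 14.1%. The 11 were the 7 features of the shared list with chr6.trna61-MetCAT, chr14.trna19-TyrGTA, chr6.trna137-SerCGA and chr5.trna13-ThrTGT. The 3 were chr6.trna34-ThrAGT, chr6.trna42-GlnCTG and chr17.trna23-ArgCCG. Of the 11, 7 passed the filter only through EV, namely the shared list without chr6.trna14-TyrGTA, and chr5.trna13-ThrTGT. Such features had to differ to be counted here, so the number of 11 is a description and not support.

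Copies with the same anticodon differed in their values between the lines. In SerGCT, chr6.trna31-SerGCT made up 25.0% and 32.5% of the reads in untreated EV, 35.7% and 21.6% in EV with etoposide and 0% in R273H, while chr6.trna62-SerGCT made up 62.1% of the EV reads and 95.3% of the R273H reads. The latter had 121 reads in EV and 162 in R273H, and no difference between the lines was called for it. In ThrCGT, chr6.trna54-ThrCGT made up 65.7%, 38.9%, 35.3% and 61.5% of the reads of the 4 EV libraries, and chr6.trna121-ThrCGT made up 21.2% of the EV reads (24) and 63.5% of the R273H reads (73). The ThrCGT sum was not called in either condition.

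ArgCCG had 2 copies, and the lines differed in which copy held the reads. The copy chr16.trna1-ArgCCG had 37 of the 47 EV reads (78.7%) and 3 of the 43 R273H reads (6.98%). The copy chr17.trna23-ArgCCG had the remaining 10 reads in EV, as 4, 3, 1 and 2, and 40 in R273H, as 5, 9, 10 and 16. Its log2 fold change after etoposide was 2.22 and did not pass (edgeR adjusted p = 0.0765). The ArgCCG sum was not called.

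AsnGTT had 10 features, all on chromosome 1. The copy chr1.trna87-AsnGTT made up 35.9% of the EV reads and none of the R273H reads, and chr1.trna96-AsnGTT made up 24.4% of the EV reads and 78.0% of the R273H reads. In ThrTGT, chr5.trna13-ThrTGT made up 43.5% of EV reads and 7.79% of R273H reads. In SerCGA, chr6.trna137-SerCGA made up 48.4% and 20.2%. For SerCGA the other copies together had a TMM level in R273H that was 0.977 times that in EV untreated and 0.973 times after etoposide.

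**Figure D3:**
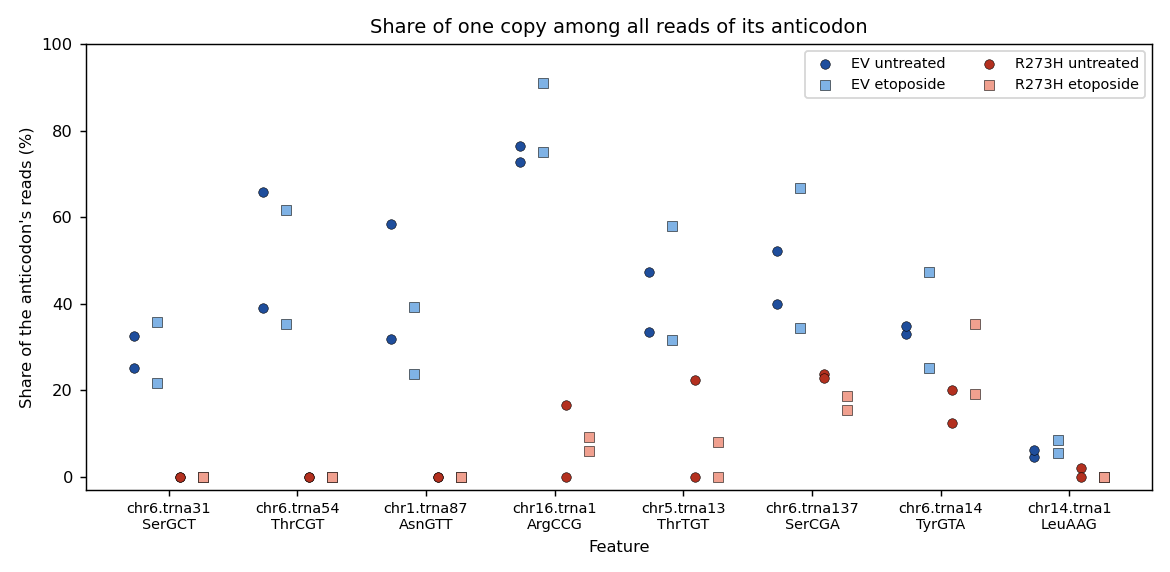
Share of the reads of an anticodon, in percent, taken by 8 features in each library, with the EV libraries beside the R273H libraries. The shares of chr6.trna31-SerGCT and chr6.trna54-ThrCGT are 0% in R273H. That of chr16.trna1-ArgCCG is 72.7% to 90.9% in EV and 0% to 16.7% in R273H.

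For TyrGTA and ArgTCG the summed reads of the other copies were lower in R273H as well. The copy chr6.trna14-TyrGTA made up 35.8% of the EV reads and 21.7% of the R273H reads, and the 9 other TyrGTA copies together were also lower, at 0.458 times the EV level untreated and 0.282 times after etoposide. The most abundant of them, chr14.trna19-TyrGTA, showed 34, 8, 18 and 17 reads for EV against 11, 9, 14 and 8 for R273H (after etoposide log2 fold change -1.48, edgeR adjusted p = 0.0605). Of the sparse TyrGTA copies, 3 went the other way, with 1 read for EV against 5 for R273H in chr2.trna2-TyrGTA, 0 against 2 in chr8.trna12-TyrGTA and 0 against 1 in chr14.trna5-TyrGTA. In ArgTCG all 3 copies were low in R273H, with 47, 7 and 1 reads for EV against 3, 0 and 0 for R273H. The 5 LeuAAG copies other than chr6.trna78-LeuAAG had 72 reads in EV and 13 in R273H. No test of these shares was made beyond the tests of the single features and sums.

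Counting every feature with at least 10 reads over the 8 libraries, 6 of the 80 features (7.5%) had no read in any R273H library and 0 had no read in any EV library. Among all 577 features with at least 10 reads the numbers were 12 (2.08%) and 7 (1.21%). Among the 81 other tRNA features they were 1 (1.23%) and 0, and among 410 miRNAs 5 (1.22%) and 7 (1.71%). Besides the 3 named above, the 6 features were chr20.trna6-LeuAAG with 9, 1, 2 and 4 reads in the EV libraries, chr17.trna30-CysGCA with 4, 0, 4 and 7, and chr14.trna18-TyrGTA with 3, 2, 2 and 3, named after their values were seen. For each of the 6, the other copies of its anticodon had reads in R273H, from 34 for CysGCA to 455 for LeuAAG. This count was made after the values were seen and was not tested. A feature with no read in R273H reaches 10 reads only through EV, so the count is a description and not support.

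No feature and no sum was called between etoposide-treated and untreated cells of either line. In EV, 0 of 48 features passed in limma, where 0.725% of all features did, and 3 of 48 had an unadjusted p under 0.05, against 6.76% of all features. In R273H, 0 of 43 passed where 0% of all features did, and 1 of 43 had an unadjusted p under 0.05, against 8.22%. For anticodon sums the counts were 0 of 28 in EV (0.287% of all) and 0 of 27 in R273H (0% of all), with 2 (7.18% of all) and 1 (8.44% of all) at an unadjusted p under 0.05. Neither edgeR nor DESeq2 called any of them. The median log2 fold change of the features was 0.02 in EV and 0.07 in R273H, against 0.00 and 0.01 for all features. These medians hold relative to the scaling used. As a share of counted reads, the 157 features went in R273H from 0.199% and 0.301% to 0.393% and 0.540% after etoposide, without overlap. In EV these shares overlapped, as did the summed TMM levels of R273H (2975 and 3415 untreated, 3468 and 3285 after etoposide). The change in share was not tested.

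Values with a small p included the following. In EV, chr6.trna50-SerAGA had normalized counts of 34.8 and 93.9 untreated and 18.1 and 26.6 after etoposide, a log2 fold change of -1.34 ± 0.48 (SE, limma adjusted p = 0.341). The SeCTCA sum had 9.02 and 1.51 untreated and 13.4 and 11.8 after etoposide, a log2 fold change of 1.43 ± 0.70 (SE, limma adjusted p = 0.608). In both, the groups did not overlap, but the untreated libraries differed widely from each other. In R273H, LeuAAG had 70.5 and 70.9 untreated and 128 and 139 after etoposide, a log2 fold change of 0.91 ± 0.32 (SE, limma adjusted p = 0.466). Its R273H libraries lay close to each other within each group. The largest anticodon value in EV, 2.12 for ProCGG, rested on 1 and 0 reads untreated and 10 and 2 after etoposide.

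The response to etoposide was compared between the lines as a difference of responses in edgeR. None of 49 features and none of 28 anticodon sums passed, as was so for 0% of everything tested, with 3 (against 3.96% of all) and 1 (against 3.37% of all) at an unadjusted p under 0.05. DESeq2 also called none. The smallest p among anticodons belonged to LeuAAG, whose log2 fold change with etoposide was 1.22 higher in R273H than in EV (edgeR adjusted p = 1.00). A p that misses the threshold with 2 libraries a group does not show that the responses were alike.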

How the data were processed

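Small RNA of 17 to 35 bases from 8 libraries was sequenced on an Ion PGM instrument. After trimming with FASTX, the authors used SHRiMP to align reads to miRBase, tRNA, rRNA and adapter references and Novoalign for hg19, and normalized the counts of each feature with DESeq. Each deposited signal value in the 3 normalized tables is thus the number of reads over the DESeq size factor of its library. All values were whole multiples of 1 read (tolerance 0.0051), so read counts were recovered. Libraries held 234545 to 579367 counted reads, and a limit of 3 reads was used for groups at 0. How reads that match several tRNA copies were assigned is not given in the sources used here.

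Features were selected by name, and summed by anticodon and by amino acid together with all other tRNA features. R273H against EV and etoposide in each line were tested within their own tables with limma 3.58.1 (trend) on log2(normalized count + 1), for a mean of at least 3. R273H against EV after etoposide and the difference of responses were tested by quasi-likelihood in edgeR 4.0.16 with TMM scaling, on the reads of all 8 libraries. P-values were adjusted by Benjamini-Hochberg over everything tested, with a threshold of 0.05. Counting intervals (95%) are exact binomial for ratios of reads and Wilson for shares, and cover counting error only. Named are all amino acids, anticodons called or among the 12 most abundant, the 10 most abundant features and up to 10 called features per comparison. Other features named for their copy share, for groups that do not overlap or for reads in 1 line were named after their values were seen.

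The features, lists and tests were chosen with earlier results of these data known. Alternatives were other pseudocounts (0.5 and 5), no filter or a mean of at least 10, other scalings, limma without the trend, edgeR, DESeq2 1.42.0, the replicate number as a block, and leaving out single libraries. Scripts were tested on simulated counts. R 4.3.3, Python 3.11.15, numpy 2.4.6, pandas 2.3.3, scipy 1.17.1 and matplotlib 3.10.9 were used. The deposited comparison tables, which hold fold changes and p-values of the authors' own tests, were not used here.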

Additional observations from a re-analysis of the deposited data

How the results depend on the processing

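The counts of features called between the untreated lines (10) became 3 with a mean of at least 10, 16 with equal tRNA totals, 4 with DESeq2 and 0 to 3 with 1 library left out. After etoposide the 9 features became 2 with a mean of at least 10, 5 when scaled by total reads (chosen after seeing the data) and 4 to 11 with 1 library left out. The anticodon sums called went from 4 to 0 to 4 untreated with 1 library left out, and from 2 to 1 when scaled by total reads and to 2 to 6 with 1 library left out after etoposide. The 4 amino acid sums untreated became 1 with equal upper quartiles, 1 with equal tRNA totals, 0 when scaled by total reads, 1 with limma without the trend and 0 to 2 with 1 library left out. Those after etoposide became 1 with no filter, 1 with a mean of at least 10, 1 with equal upper quartiles, 0 with equal tRNA totals, 0 when scaled by total reads, 1 with DESeq2 and 1 to 6 with 1 library left out. Equal tRNA totals turned the direction of methionine (0.26) and tryptophan (0.40) after etoposide and of leucine untreated (0.054), all as log2 fold changes, among the values called. Called or not, 10 of 13 amino acid sums lay above 0 under this scaling in either condition (4 and 1 in the reported fits), as did 22 of 27 and 24 of 28 anticodon sums (8 and 8) and 31 of 45 and 37 of 49 features (18 and 17). Without chr6.trna61-MetCAT (chosen after seeing the data) the log2 ratio of the summed level was -0.39 untreated and -0.42 after etoposide. The causes were not tested, except that equal tRNA totals set the tRNA sum of every library to the same value and so remove a difference shared by all tRNA features.

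The replicate numbers were not taken as pairs, since the labels tie them to no shared culture or batch and each table has only 2. The correlation of the deviations of same-numbered libraries was -0.02, -0.01 and -0.02 over all features of the 3 tables and 0.23, 0.0015 and 0.27 over the tRNA features studied here (R273H against EV, etoposide in EV, etoposide in R273H). With a replicate block, 2 features, 0 anticodon sums and 0 amino acid sums were called between the untreated lines, and 9, 2 and 2 after etoposide. The counts for etoposide in either line and for the difference of responses were 0 in every setting run. Over all single values, 2677 of 3214 alternatives kept the direction and the side of the threshold, 164 lost and 25 gained a call, 345 changed sign with no call in either fit and 3 changed sign from a call. ArgTCG after etoposide stayed called in all 14 alternatives, with log2 fold changes of -6.86 to -3.24, and untreated in 11 of 14, with -4.92 to -1.84. Its sum passed the filter through EV in both conditions, so this is a description and not support. Depth limits what can be seen, since a feature with a median of 10 reads over 8 libraries holds about 1 read in each.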

Other observations

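Some miRNAs in miRBase come from tRNA genes or lie beside them. Of several such names looked up, only miR-4521 and miR-4454 were in the tables. The mature sequence of miR-4521, shown because RefSeq places it 1 base after the end of the serine tRNA gene TRS-GCT4-3 (GRCh38.p14, chr17:8186948-8186969, plus strand), follows with its seed, bases 2 to 8, in capitals.
miR-4521: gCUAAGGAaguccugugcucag
It had 595 and 183 reads in untreated EV, 130 and 340 in EV with etoposide, 206 and 387 in untreated R273H and 335 and 214 in R273H with etoposide. The groups overlapped in every comparison and none was called, and its log2 fold change in untreated R273H was -0.36 while that of the SerGCT sum was -1.0. The SerGCT features counted here lie on chromosomes 6 and 11, so that sum holds no copy from beside miR-4521. The other name, miR-4454, had at most 7 reads in a library.

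The 3 suppressor features had 6 reads in all and the 3 features with no anticodon label had 10. Of the 3 selenocysteine features, chr19.trna8-SeC(e)TCA held 91.8% of the 85 reads, with 13, 1, 14 and 9 reads in the EV libraries and 6, 5, 22 and 8 in the R273H libraries.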
